A study of Mus musculus with 384 samples.

Results

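Cytosolic ribosomal protein genes encode the proteins of the large and small subunits of the cytoplasmic ribosome. They were taken from the deposited liver RNA-seq table as every row whose Ensembl gene is annotated in GENCODE M21 as protein-coding with a symbol of the Rpl or Rps series, plus Rpsa, Rplp0, Rplp1 and Rplp2, and without the Rps6k kinases. This gave 81 of 21454 rows, 50 for the large and 31 for the small subunit. Of these, 79 (48 large and 31 small) passed the filter on low values, among 14602 genes tested in all; the paralogues Rpl3l and Rpl39l did not. Rps27 and Rpl10l also meet the symbol rule and had no row.

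The livers came from 192 wild type Diversity Outbred mice (J:DO), an outbred stock in which each animal is a different mixture of inbred founder genomes. Mice were Female (F) or Male (M), were 26 weeks old, and had eaten either chow with 6% fat or a high fat diet with 22% fat by weight since weaning. The groups held 50 F mice on chow, 48 F mice on high fat diet, 48 M mice on chow and 46 M mice on high fat diet. Each mouse also carries a generation label, G11L1 (97 mice) or G11L2 (95 mice), that the labels do not explain. Each library was sequenced as 2 technical runs, and the table holds 1 column per mouse, so the mouse is the replicate. Values are upper-quartile normalized signals, called signal below. The diet and sex comparisons ask how RNA of these genes differs between the 4 groups.

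The ribosome's small subunit decodes messenger RNA and the large subunit joins amino acids. Their proteins are needed in fixed proportions, and many ribosomal protein messengers begin with a run of pyrimidines, the 5′ terminal oligopyrimidine (TOP) motif, through which mTORC1 and the RNA-binding protein LARP1 regulate their translation. Mammalian genomes also carry many processed pseudogenes of these genes, which are intronless copies of the spliced messenger. In liver, a tissue that secretes much of the plasma protein, ribosome supply is coupled to feeding through mTORC1.

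Copies that share sequence with a gene may bear on what its row measures, which was not tested. A copy was defined as a gene that shares at least 10% of a ribosomal protein gene's 50-base words, and at least 10% of its own. Of the 79 tested genes, 64 had at least 1 copy with a row of its own, 258 rows in all, of which 247 were pseudogenes. The windows below are shown because they span an exon junction and are the same in the gene and in the copy with the highest mean signal, so that these 60 bases by themselves do not tell the 2 rows apart; reads are 100 bases long and reach beyond them. Each is 60 coding bases from GENCODE M21 transcripts on GRCm38, 5′ to 3′, with the 3 bases on each side of the junction in capitals.
Rpl19: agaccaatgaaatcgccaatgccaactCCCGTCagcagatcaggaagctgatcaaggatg
Rpl12: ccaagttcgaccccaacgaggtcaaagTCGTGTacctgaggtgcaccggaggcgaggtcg
Rpl5: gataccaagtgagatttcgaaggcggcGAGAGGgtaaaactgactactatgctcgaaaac
Rps6: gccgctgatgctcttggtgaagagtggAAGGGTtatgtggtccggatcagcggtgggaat
Rps13: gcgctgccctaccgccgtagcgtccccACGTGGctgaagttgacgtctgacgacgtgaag
Rps25: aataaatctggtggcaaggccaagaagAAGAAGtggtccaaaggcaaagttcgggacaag

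The Rpl19 window joins exons 2 and 3 (chr11:98027900-98027929 and chr11:98028346-98028375, plus strand) and lies unbroken in Rpl19-ps11 (chr8:19493018-19493077, plus strand). The Rpl12 window joins exons 1 and 2 (chr2:32961810-32961839 and chr2:32962049-32962078, plus strand) and lies in Gm10275 (chr10:29699224-29699283, minus strand). For Rpl5, exons 2 and 3 (chr5:107901910-107901939 and chr5:107902022-107902051, plus strand) match Gm15500 (chr7:114706061-114706120, minus strand). The Rps6 junction of exons 2 and 3 (chr4:86856728-86856757 and chr4:86856327-86856356, minus strand) recurs in Rps6-ps4 (chr2:75191655-75191714, minus strand). That of Rps13, also exons 2 and 3 (chr7:116333900-116333929 and chr7:116333745-116333774, minus strand), recurs in Rps13-ps2 (chr7:88530797-88530856, minus strand). In Rps25, exons 2 and 3 (chr9:44408054-44408083 and chr9:44408686-44408715, plus strand) match Rps25-ps1 (chr6:145266469-145266528, plus strand). All coding junction windows of these 6 genes were identical in the named copy: 4 for Rpl19, 5 for Rpl12, 6 for Rpl5, 3 for Rps6, 4 for Rps13 and 2 for Rps25. Over the coding sequence without its stop codon, the copy had no different base for Rpl12, Rpl5, Rps6 and Rps13, 1 different base of 588 for Rpl19 and 4 of 375 for Rps25.

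Rpl19, a large subunit protein, was nearly all or nothing between mice, and its copy was its mirror image. Its signal was at most 3.26 in 73 mice and at least 31.1 in the other 119, with no mouse between. Rpl19-ps11 ran from 0.0569 to 63.4. Across 192 mice the 2 rows had a Pearson correlation of -0.96, and the coefficient of variation fell from 76.9% for Rpl19 alone to 14.1% for the sum of the gene and its copies. Mice with under 10% of that sum in Rpl19 were found in every group: 21 of 50 F mice on chow, 14 of 48 F mice on high fat diet, 22 of 48 M mice on chow and 16 of 46 M mice on high fat diet.

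Rps6, the small subunit protein that S6 kinases phosphorylate downstream of mTORC1, behaved alike. It was at most 2.36 in 40 mice and at least 41.4 in 152, and its correlation with Rps6-ps4 was -0.85. Its coefficient of variation was 53.0% alone and 15.1% with copies. Low mice again came from each group, with 6, 13, 11 and 10 mice in F chow, F high fat, M chow and M high fat.

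Rps13, Rps25 and Rpl12 also had mice with signal in both rows, as the plot of gene against copy shows. Rps13 held under 10% of its sum in 144 mice, between 10% and 90% in 24 and over 90% in 24. Its correlation with Rps13-ps2 was -0.73, and its coefficient of variation fell from 172% to 13.4% with copies. Rps25 held under 10% of its sum in 54 mice, an intermediate share in 74 and over 90% in 64. With Rps25-ps1 its correlation was -0.78, and the coefficient of variation fell from 64.7% to 15.0%. Rpl12, a protein at the base of the ribosomal stalk, held under 10% in 23 mice, an intermediate share in 99 and over 90% in 70. It correlated at -0.87 with Gm10275, and its coefficient of variation fell from 83.9% to 20.7%.

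Rpl5, which binds 5S ribosomal RNA and, with Rpl11, the p53 regulator Mdm2, was low in every mouse instead. Its mean signal was 5.01 against 44.9 for its copy Gm15500, and the rows did not mirror each other (correlation 0.15). Rpl27a (4.87 against 30.1 for Gm7536) and Rpl31 (1.89 against 23.7 for Rpl31-ps8) had the same order of levels. In 8 genes the copies held over 50% of the sum. Whether any copy is itself transcribed was not tested, and the rule by which reads matching several genes were counted is not given in the sources used here.

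**Figure D1:**
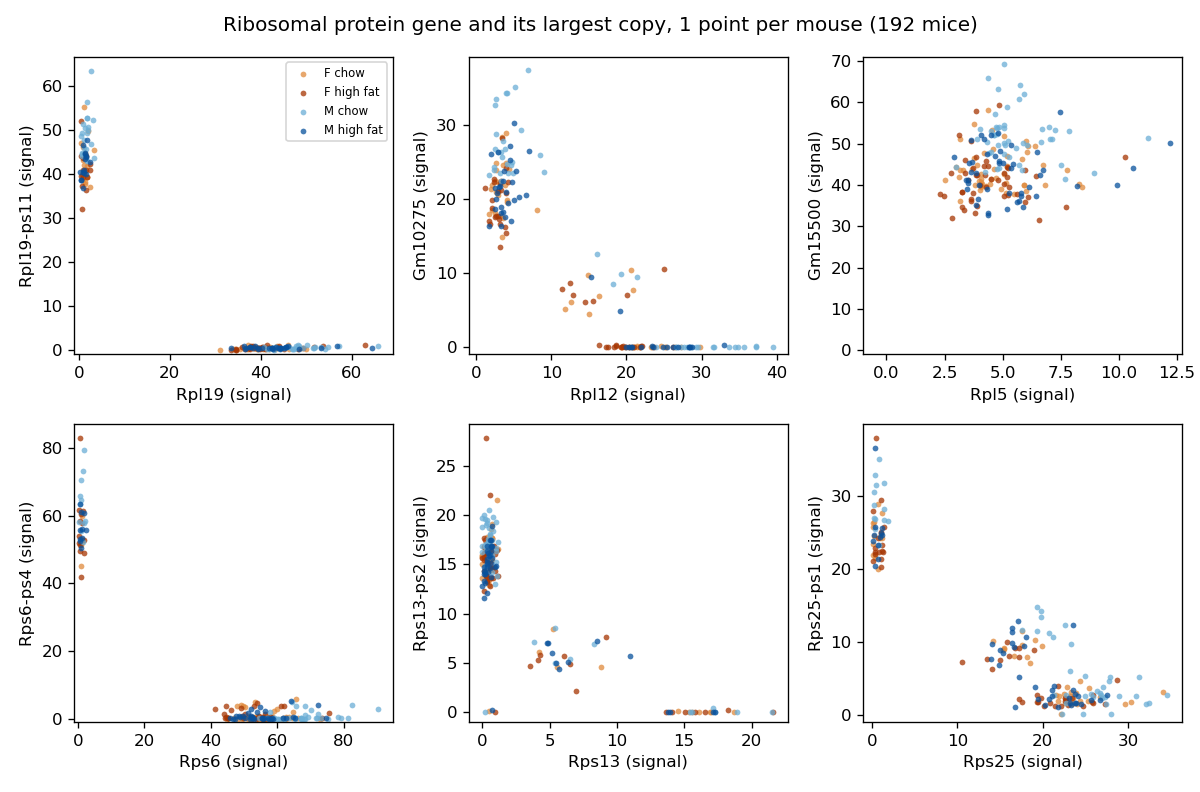
Signal of 6 ribosomal protein genes (horizontal axes) against the copy with the highest mean signal (vertical axes), 1 point per mouse, coloured by group (192 mice). Rpl19 and Rps6 lie along the 2 axes with no mouse between, Rpl12, Rps13 and Rps25 also have mice between the axes, and Rpl5 is below 12.2 in every mouse while Gm15500 is at least 31.4.

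The pattern was common among ribosomal protein genes. In 35 of them the copy with the highest mean signal averaged at least 1. The Pearson correlation with that copy, on the log2 scale, was below 0 in 34 of the 35 and below -0.5 in 27. Rank correlations differed from it in both directions. The Spearman value was -0.17 for Rpl26 (Pearson -0.88), -0.31 for Rpl23a (-0.90) and 0.02 for Rpl27a (-0.37), but -0.86 for Rpl15 (-0.79). In all 35 the sum of the gene and its copies had a lower coefficient of variation than the gene alone. In 14 of the 35, at least 5 mice held under 10% of the sum in the gene and at least 5 held over 90%. Each mouse had between 1 and 9 of the 35 genes under 10% (median 5). The genes divided the mice in different ways: over 595 pairs of genes the correlation of the gene's share of its sum had a median of -0.0033, from -0.21 to 0.35, and none lay beyond 0.5 in either direction. These correlations share the same 192 libraries.

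Spread between mice was wider for ribosomal protein genes with copies. The residual SD, on the log2 scale after group and generation means were removed, had a median of 0.25 over the tested ribosomal protein genes and 0.32 over all tested genes. It was 0.19 for the 15 genes with no copy row and 0.35 for the 64 with one, and summing each gene with its copies brought the latter to 0.20. The widest was Rpl19, at 2.52 alone and 0.16 with copies. Rps25 went from 2.37 to 0.18, Rps6 from 2.33 to 0.17, Rps13 from 2.19 to 0.17, Rps16 from 2.01 to 0.20 and Rpl35 from 1.94 to 0.18. An SD above 0.5 was found in 30 genes alone and in 1 with copies.

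That 1 gene was the X-linked Rpl39, a small protein at the exit tunnel of the large subunit. Its signal was at most 4.91 in 48 mice and at least 11.6 in 144. The low mice were 11 of 50 F mice on chow, 12 of 48 F mice on high fat diet, 17 of 48 M mice on chow and 8 of 46 M mice on high fat diet. Rpl39-ps, a processed pseudogene on chromosome 15 that did not meet the word rule, was looked at after the values were seen. Its Pearson correlation with Rpl39 was -0.90, here on the signal itself and not its log2, and the Spearman correlation was -0.54. Summed with Rpl39-ps, the coefficient of variation of Rpl39 fell from 47.3% to 16.5%.

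**Figure D2:**
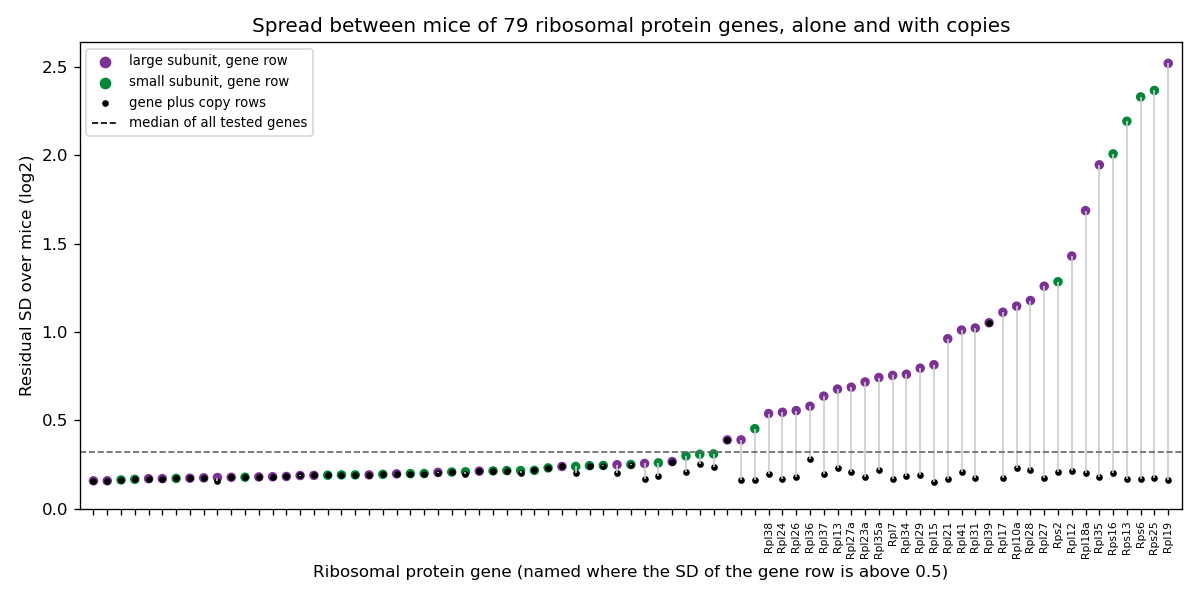
Residual SD between 192 mice (log2 scale) of each of the 79 tested ribosomal protein genes, for the gene row (coloured by subunit) and for the gene plus its copies (black), with the median of all tested genes as a dashed line and names for genes with an SD above 0.5. Genes to the right, up to Rpl19 at 2.52, fall to the level of the others once copies are added, apart from Rpl39.

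Levels between genes were compared per kilobase of annotated transcript. The highest mean signals per kb were those of Rpl10 (110.7), which joins the large subunit late in its maturation, Rplp1 (106), a stalk protein, and Rps2 (95.7), and Rps18 (79.5) and Rpl4 (60.0) were also among the highest. Among tested genes the lowest were Rpl5 (2.45), Rpl31 (3.89), Rpl27a (4.21), Rps23 (4.70), Rps13 (5.42) and Rps20 (6.31). With copies added, Rps2 was highest (118 per kb), ahead of Rpl10 (112) and Rplp1 (106). Signal per kb with copies was 25.0 for Rpl5, 52.7 for Rpl31, 30.2 for Rpl27a and 28.5 for Rps13. Rps23, with an annotated transcript of 937 bases, stayed low at 4.81 with copies, and Rps20 had no copy row. Rps20 and Rpl5 have long annotated transcripts (3706 and 2045 bases), which lowers their value per kb. Rpl3l, a muscle paralogue of Rpl3, averaged 0.0167 per kb, and Rpl39l, a testis paralogue of Rpl39, 0.00682.

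Start sites are shown because the TOP motif is defined there. RefSeq promoters (GRCm38.p6) matched 61 of the 81 genes. Each line gives 30 bases before to 20 after the annotated start, 5′ to 3′ on the gene's strand, with the pyrimidine run that touches the start in capitals, for the 3 genes of each subunit with the longest runs among the matched genes, with 2 genes left out of this ranking.
Rpl7a: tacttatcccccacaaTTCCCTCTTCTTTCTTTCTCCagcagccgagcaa
Rpl27a: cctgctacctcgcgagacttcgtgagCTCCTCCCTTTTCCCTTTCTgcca
Rpl34: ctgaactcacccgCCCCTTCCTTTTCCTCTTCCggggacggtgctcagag
Rps10: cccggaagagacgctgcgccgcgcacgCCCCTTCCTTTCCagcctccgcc
Rps18: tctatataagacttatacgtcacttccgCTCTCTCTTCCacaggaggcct
Rps6: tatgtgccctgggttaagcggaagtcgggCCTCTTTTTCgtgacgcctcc

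These windows lie at chr2:26910777-26910826 (plus strand) for Rpl7a, chr7:109519165-109519214 (plus) for Rpl27a, chr3:130730318-130730367 (minus) for Rpl34, chr17:27635225-27635274 (minus) for Rps10, chr17:33955646-33955695 (minus) for Rps18 and chr4:86857348-86857397 (minus) for Rps6. Their runs are 21, 20, 20, 13, 11 and 10 bases long. A run of at least 8 pyrimidines (C or T) within 50 bases before or after the start was present on the transcribed strand in 51 of the 61 genes (83.6%), 34 of 38 large and 17 of 23 small subunit genes. Among all 27025 genes of the promoter table the share was 39.3%. On the opposite strand it was 24.6% of ribosomal protein genes and 41.1% of all genes. The letters CCGGAAG, the core bound by ETS family factors, searched on both strands from 250 bases before to 50 after the start, were in 26 of 61 (42.6%) and in 9.93% of all genes. Their reverse complement starts with pyrimidines and can overlap a run. GCCATCTT, a YY1 site, was in 8.2% against 3.19%, CACGTG, the E-box of Myc, in 9.84% against 8.09%, and TATAAA in 11.5% against 15.7%. A match describes letters only.

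Between mice, ribosomal protein genes were more strongly correlated with each other once copies were counted. The median correlation of residuals between pairs of large subunit genes was 0.12 for gene rows and 0.73 with copies (192 mice). For pairs of small subunit genes it was 0.48 and 0.70, and for large with small 0.18 and 0.72. Among pairs from an evenly spaced subset of all tested genes the median was 0.022. The genes outside the set most like the mean residual of its gene rows were Rack1 (correlation 0.75), a small subunit scaffold protein, Gm9701 (0.74), the elongation factor subunit Eef1d (0.72), Rps27rt (0.71), Eif3i (0.69) and Eef1g (0.69), by Pearson correlation over 192 mice. The symbol of Rps27rt is built on that of Rps27, a ribosomal protein gene without a row, and lies outside the symbol rule. All correlations in this paragraph share library and scaling.

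The 4 groups were compared with limma on log2(signal + 0.0629), with a generation term, and p-values were adjusted by the Benjamini-Hochberg method over all 14602 genes; a gene is said to rise or fall where its adjusted p was under 0.05. A log2 change is given with its standard error. The main count of ribosomal protein genes in each comparison is repeated after a median-of-ratios rescaling. For other gene lists, rescaled counts are given for only part of the comparisons. Rescaling moved the median of all genes from -0.10 to 0.01 for diet in M mice and from 0.10 to -0.01 for sex on chow. Counts are also given with each gene summed with its copies, an analysis added after the data were seen. Counts within 1 generation label rest on fewer mice. The share of all genes in those fits is not given, so these counts are not set against the whole table. Estimated depth was 9.79 to 17.9 Mreads (mega-reads) per mouse. Pancreas transcripts were present in 11 mice, and 1 mouse labelled F had Xist at 0.36 where the other F mice had at least 88.2. Without the pancreas mice the counts of ribosomal protein genes given below first in each comparison were 9, 49, 55, 10, 2 and 28 (fallen in F, fallen in M, higher in M on chow, higher and lower in M on high fat, sex-by-diet difference). Without the F mouse lacking Xist they were 7, 51, 57, 11, 2 and 28. For these fits without some mice, too, the share of all genes is not given. Their counts are not set against the whole table. In bulk liver, fewer cells of a type and less RNA per cell cannot be told apart.

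In F mice, few ribosomal protein genes were lower on high fat diet than on chow. Of 79, 7 fell and 0 rose (none rose at an unadjusted p under 0.05 either), where 23.3% of all tested genes fell and 10% rose. They included the large subunit genes Rpl4, Rpl13a and Rplp0 and the small subunit genes Rpsa, Rps18 and Rps21. The median change was -0.06, against -0.04 over all genes tested. After rescaling 2 fell and 2 rose, with 14.7% and 15% of all genes; Rpsa and Rpl4 were the ones that fell, and Rps19 and Rps27l rose by 0.13 and 0.12. With copies 17 fell (11 large and 6 small) and 0 rose, where 23.5% of all rows fell and 10% rose. Quantile normalization ended these falls and turned the median to 0.03 (all genes -0.01): 3 rose and 0 fell (2 lower at an unadjusted p under 0.05 by limma), where 14.4% and 15.4% of all genes did. Within G11L1 mice alone none fell, and within G11L2 mice 15 fell.

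Rpsa, a small subunit protein also known as the laminin receptor, had the largest fall in F mice. Its signal was 56.2 to 103 (median 72.2) in F mice on chow and 45.8 to 99.3 (62.5) in F mice on high fat diet. In M mice it was 71.2 to 133 (87.6) on chow and 54.3 to 124 (74.0) on high fat diet. The ranges overlapped in all 4 groups, with M mice on chow highest. The log2 change with diet was -0.20 ± 0.044 in F mice (limma, adjusted p = 9.51e-05) and -0.30 ± 0.045 in M mice (adjusted p = 1.13e-08). Rps18 fell by 0.14 ± 0.044 in F mice (adjusted p = 0.00937). Rpl4, whose extension lines the exit tunnel, fell by 0.14 ± 0.033 in F mice (adjusted p = 0.000483).

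In M mice, most ribosomal protein genes of both subunits were lower on high fat diet than on chow. Of 79, 51 fell (25 large and 26 small) and 0 rose, also at an unadjusted p under 0.05, where 39.8% of all genes fell and 11.4% rose. The median was -0.23, against -0.10 over all genes. After rescaling 38 fell and 0 rose, where 16.8% and 19.4% of all genes did, and the medians were -0.12 and 0.01. With copies 76 fell (45 large and all 31 small) and 0 rose, where 40.1% of all rows fell and 11.5% rose. With quantile normalization 21 fell and 0 rose, where 18.6% and 15% of all genes did. The 3 that did not pass with copies were Rplp1 (-0.11 ± 0.056, limma adjusted p = 0.0759), the paralogue Rpl22l1 (-0.02) and Rpl39 (0.29 ± 0.22, adjusted p = 0.268). Within G11L1 mice 43 fell and 1 rose, and within G11L2 mice 43 fell. None of the 51 fell by 1.5-fold or more.

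Rps27a, which encodes ubiquitin fused to a small subunit protein, had one of the largest of these changes among genes with little spread. Its signal was 26.1 to 48.1 (median 34.3) in M mice on chow and 21.6 to 44.8 (27.8) in M mice on high fat diet. In F mice it was 22.6 to 40.7 (27.9) on chow and 21.4 to 42.8 (28.0) on high fat diet. M mice on chow stood higher than the other 3 groups, whose medians differed by 0.2 or less, and all ranges overlapped. The change in M mice was -0.31 ± 0.044 (limma, adjusted p = 8.03e-10). Rps3a1, a protein of the small subunit, fell by 0.28 ± 0.036 (adjusted p = 7.21e-11).

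The 4 largest falls by size in M mice were in large subunit genes with copies. Rpl29 had a signal of 5.10 to 38.8 (median 22.4) in M mice on chow and 4.45 to 34.7 (17.7) in M mice on high fat diet. F mice had 3.87 to 29.6 (17.8) on chow and 4.48 to 31.0 (19.0) on high fat diet. Each group held mice near 5 and mice above 20, as the plot of signal per mouse shows. The change was -0.39 ± 0.16 in M mice (limma, adjusted p = 0.0368). With copies it was -0.19 ± 0.040 (adjusted p = 1.59e-05). For Rpl35a the change in M mice was -0.36 ± 0.15 alone and -0.26 ± 0.046 with copies. Rpl37 gave -0.32 ± 0.13 and -0.27 ± 0.042, and Rpl36 -0.34 ± 0.12 and -0.25 ± 0.058.

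**Figure D3:**
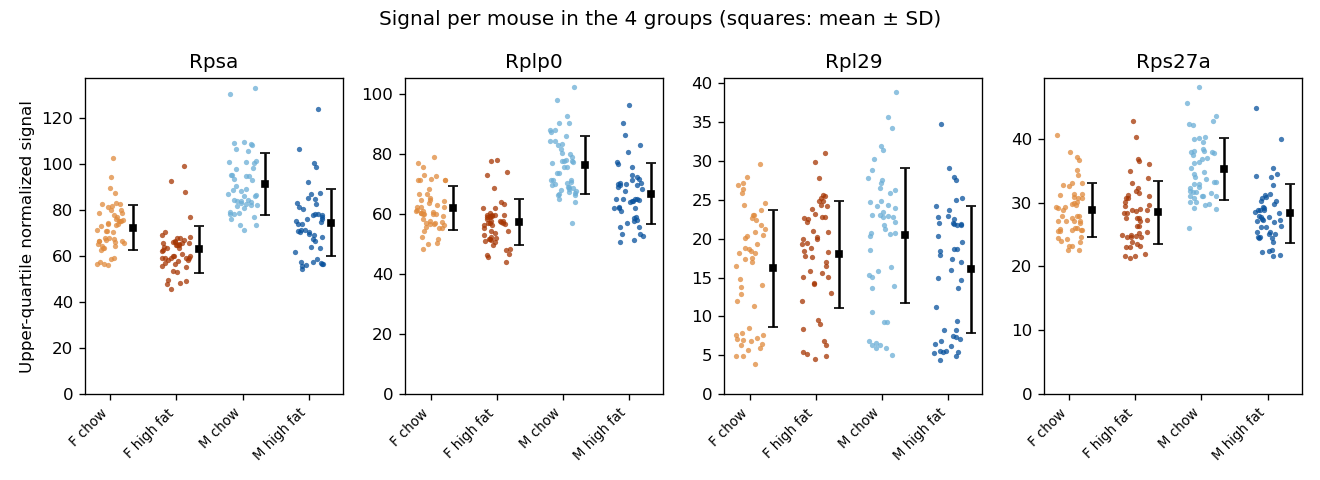
Signal per mouse of Rpsa, Rplp0, Rpl29 and Rps27a in the 4 groups, with mean ± SD as squares and bars (50, 48, 48 and 46 mice). M mice on chow have the highest median for each gene, and Rpl29 has the widest relative spread, with mice near 5 and above 20 in every group.

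On chow, most ribosomal protein genes of both subunits had a higher signal in M than F mice on the deposited scaling. Of 79 genes, 56 were higher (30 large and 26 small) and 0 lower, also at an unadjusted p under 0.05, where 44.1% of all genes were higher and 19.1% lower. The median was 0.21, against 0.10 over all genes. After rescaling 28 were higher (13 large and 15 small) and 0 lower (1 at an unadjusted p under 0.05), where 26.1% of all genes were higher and 29.5% lower, and the medians were 0.09 and -0.01. With copies 74 were higher (45 large and 29 small) and 0 lower, where 44.4% of all rows were higher and 19.2% lower. The 5 others were Rpl22, Rpl36, Rpl39, Rps2 and Rps28. With quantile normalization 24 were higher and 1 lower, where 30.1% and 24.8% of all genes were. Within G11L1 mice 51 were higher, and within G11L2 mice 29. The mean share of ribosomal protein genes in the summed signal on chow turned with quantile normalization only. It was 1.00% in M and 1.03% in F mice as deposited, and the same after median-of-ratios rescaling. With quantile normalization it was 1.07% in M and 1.00% in F mice.

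The paralogue Rpl7l1, a nucleolar relative of Rpl7, had the smallest p of the 79 genes in this comparison. Its signal was 7.92 to 13.1 (median 10.2) in F and 8.95 to 18.5 (13.5) in M mice on chow. On high fat diet it was 7.89 to 13.0 (9.66) in F and 8.01 to 15.7 (11.8) in M mice. M medians were higher on both diets, with overlapping ranges, and the log2 difference on chow was 0.41 ± 0.039 (limma, adjusted p = 4.39e-19). The paralogue Rps27l, a p53 target, was higher by 0.38 ± 0.040 (adjusted p = 2.70e-16). Rpl22l1, the paralogue of Rpl22, was higher by 0.49 ± 0.079 (adjusted p = 1.93e-08).

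The stalk recruits elongation factors to the large subunit. Its anchor Rplp0 ran from 48.2 to 79.1 (median 60.8) in F and from 57.0 to 102 (75.7) in M mice on chow. On high fat diet it ran from 44.1 to 78.0 (57.0) in F and from 50.8 to 96.3 (65.1) in M mice. Ranges overlapped, and M medians were higher on both diets. Rplp0 was higher in M mice by 0.30 ± 0.038 on chow (limma, adjusted p = 2.26e-12) and by 0.22 ± 0.038 on high fat diet (adjusted p = 3.74e-07). Rplp1 was higher by 0.27 ± 0.054 on chow (adjusted p = 7.59e-06) and Rplp2 by 0.12 ± 0.049 (adjusted p = 0.0214). Rpsa was higher by 0.33 ± 0.044 on chow (adjusted p = 2.40e-11).

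Some of the largest sex differences on chow shrank with copies. Rps16 was higher by 0.89 ± 0.41 alone (limma, adjusted p = 0.0462) and by 0.24 ± 0.041 with copies (adjusted p = 1.95e-07). Rpl10a went from 0.54 ± 0.23 to 0.27 ± 0.047 and Rps7 from 0.53 ± 0.092 to 0.24 ± 0.034. The Rps7 row held over 90% of its sum in 12 of 48 M mice on chow and 10 of 46 on high fat diet. In F mice it did so in 0 of 50 and 0 of 48. The copy of Rps7 with the highest mean signal, Gm6472, lies on the X chromosome. Its part in the sex difference was not tested. For Rps6 the gene row gave -0.37 ± 0.47 (adjusted p = 0.507) and the sum with copies 0.26 ± 0.035 (adjusted p = 2.34e-11). Rpl19 gave 0.08 ± 0.51 alone (adjusted p = 0.906) and 0.25 ± 0.033 with copies (adjusted p = 2.70e-11).

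**Figure D4:**
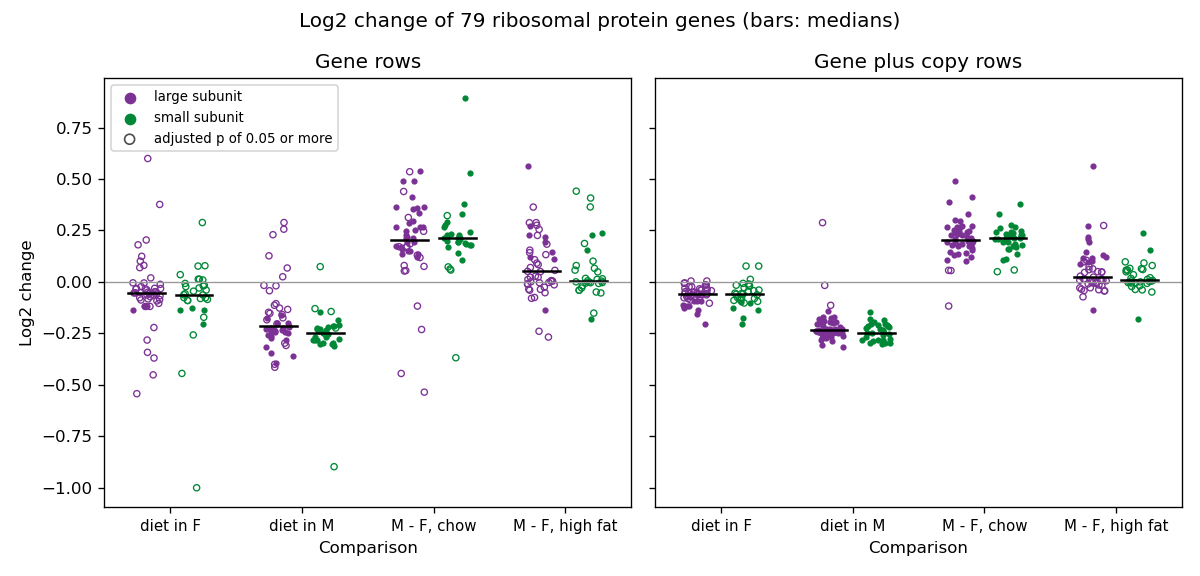
Log2 change of the 79 tested ribosomal protein genes in 4 comparisons, for gene rows (left) and gene plus copy rows (right), with large and small subunit genes in separate columns, filled points under an adjusted p of 0.05 and bars at the medians. With copies the points draw in around medians near -0.06, -0.24, 0.21 and 0.01, at like heights for the 2 subunits.

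On high fat diet the sexes differed in few of these genes. Of 79 genes, 11 were higher in M mice (8 large and 3 small) and 2 lower, where 31.5% of all genes were higher and 18.3% lower. The median was 0.02, against 0.04 over all genes. After rescaling 7 were higher and 5 lower, where 23.3% and 25.1% of all genes were, and the median turned to -0.03. With quantile normalization 7 were higher and 4 lower, where 25.2% and 22.9% of all genes were, and the median was again -0.03. With copies 15 were higher (13 large and 2 small) and 2 lower, where 31.7% and 18.4% of all rows were. Within G11L1 mice 6 were higher and 2 lower, and within G11L2 mice 7 and 0.

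Rpl22 and its paralogue Rpl22l1 lay on opposite sides. Rpl22l1 signal was 1.77 to 5.79 (median 2.68) in F and 2.51 to 10.7 (4.22) in M mice on high fat diet, and 1.93 to 6.22 (3.13) and 2.06 to 7.88 (4.46) on chow. Rpl22 was 13.9 to 26.9 (18.1) in F and 12.7 to 24.6 (16.9) in M mice on high fat diet, and 15.1 to 23.0 (18.7) and 14.0 to 26.5 (20.1) on chow. M mice had the higher median of Rpl22l1 on both diets, with overlapping ranges, and the lower median of Rpl22 only on high fat diet. On high fat diet Rpl22l1 was higher by 0.56 ± 0.081 in M mice (limma, adjusted p = 8.19e-10) and Rpl22 differed by -0.14 ± 0.037 (adjusted p = 0.000939). After rescaling these were 0.51 and -0.19. Rps28, the other lower gene, differed by -0.18 ± 0.065 (adjusted p = 0.0154).

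The change with diet differed between the sexes for many of these genes. The interaction, the diet change in M mice minus that in F mice, was below 0 for 28 of 79 genes (13 large and 15 small) and above 0 for 0 (also 0 at an unadjusted p under 0.05), where 6.92% of all genes were below and 1.46% above. The median was -0.18, against -0.05 over all genes. Rps27a had -0.29 ± 0.061 (limma, adjusted p = 0.000666), Rps3a1 -0.23 ± 0.051 (adjusted p = 0.00105), Rpl18 -0.24 ± 0.055 (adjusted p = 0.00185) and Rpl23 -0.23 ± 0.053 (adjusted p = 0.00206). In M mice Rpl18 ran from 25.6 to 43.4 (median 33.4) on chow and from 20.9 to 39.8 (27.7) on high fat diet. In F mice it ran from 20.0 to 34.3 (27.4) and from 20.6 to 43.7 (26.8). Only the M chow group stood higher, and ranges overlapped.

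The count of interactions depended on the scaling. After rescaling 6 were below 0 and 0 above (0 at an unadjusted p under 0.05), where 2.1% and 2.13% of all genes were, and the 6 were Rpl18, Rpl23, Rps19, Rps27a, Rps3 and Rps3a1. With quantile normalization 5 were below 0 and 0 above, where 2.49% and 1.84% of all genes were. Rps19, whose human counterpart is mutated in Diamond-Blackfan anaemia, was at -0.20 after the median-of-ratios rescaling. With copies 48 were below 0 (28 large and 20 small) and 0 above, where 7.12% and 1.48% of all rows were. Within G11L1 mice 20 were below 0, and within G11L2 mice 0.

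Of the X-linked genes, which M mice carry in a single copy, Rpl10, Rpl36a and Rps4x were higher in M mice on chow and Rpl39 did not pass. Rpl10 was 72.0 to 109 (median 86.1) and 63.0 to 123 (83.1) in F mice on chow and high fat diet, and 78.7 to 126 (97.3) and 69.9 to 109 (83.7) in M mice. M mice on chow were highest and all ranges overlapped. On chow M mice were higher for Rpl10 by 0.16 ± 0.033 (limma, adjusted p = 9.63e-06), for Rpl36a by 0.21 ± 0.041 (adjusted p = 1.27e-06) and for Rps4x by 0.17 ± 0.037 (adjusted p = 2.43e-05). For Rpl39 the difference was -0.12 ± 0.21 (adjusted p = 0.647). After rescaling the differences on chow were 0.04 for Rpl10, 0.10 for Rpl36a and 0.05 for Rps4x, and only that of Rpl36a passed (adjusted p = 0.0274).

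No ribosomal protein gene passed the test of the generation label. Of 79, 0 were higher and 0 lower in G11L2 than in G11L1 mice by limma (4 and 1 at an unadjusted p under 0.05), where 0.397% of all genes were higher and 0.541% lower. After rescaling the counts were 0 and 0 (8 and 2 unadjusted) with 1.06% and 0.733% of all genes, and with copies 0 and 0 (10 and 0 unadjusted) with 0.434% and 0.564% of all rows.

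The proportion of large to small subunit signal varied less between mice once copies were counted. Summed signal of large subunit genes averaged 1282 ± 118 (SD, n = 50) in F mice on chow, 1241 ± 171 (n = 48) in F mice on high fat diet, 1489 ± 153 (n = 48) in M mice on chow and 1288 ± 174 (n = 46) in M mice on high fat diet. The large to small ratio of summed signal was 1.39 ± 0.0945, 1.42 ± 0.107, 1.39 ± 0.101 and 1.43 ± 0.116 in the same order. With copies it was 1.52 ± 0.0235, 1.53 ± 0.0273, 1.53 ± 0.0273 and 1.55 ± 0.0252. Per mouse, gene rows gave ratios from 1.21 to 1.75 and gene plus copy rows from 1.46 to 1.60, with all groups overlapping.

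Ribosomal protein genes held 1.03% ± 0.109 (SD) of the summed signal of the table in F mice on chow, 1.06% ± 0.122 in F mice on high fat diet, 1.00% ± 0.118 in M mice on chow and 0.968% ± 0.111 in M mice on high fat diet. With quantile normalization the order differed: the share was 1.00% in F mice on chow, 1.02% in F mice on high fat diet, 1.07% in M mice on chow and 1.02% in M mice on high fat diet, so that M mice on chow were highest. On the deposited scaling the summed signal over all genes was highest in M mice on chow (median 256175, against 217554 in F mice on chow, 198976 in F mice and 228459 in M mice on high fat diet). No p is given for these sums, which are scores over the chosen genes.

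**Figure D5:**
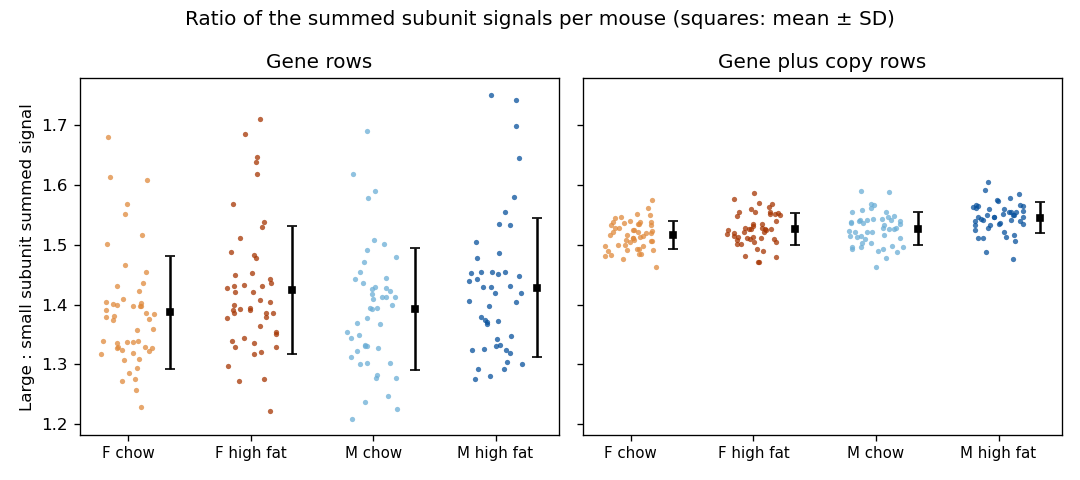
Ratio of summed large to summed small subunit signal per mouse in the 4 groups for gene rows (left) and gene plus copy rows (right), with mean ± SD as squares and bars. The spread narrows from an SD of 0.0945 to 0.116 for gene rows to 0.0235 to 0.0273 with copies.

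Other genes of the translation machinery, from lists fixed apart from the ribosomal protein genes, were counted beside all genes tested, of which 39.8% fell and 11.4% rose with diet in M mice (16.8% and 19.4% after rescaling), 23.3% fell and 10% rose in F mice, and 44.1% were higher and 19.1% lower in M mice on chow (26.1% and 29.5% after rescaling). Of 24 translation factors and other TOP transcripts, 21 fell and 0 rose with high fat diet in M mice (13 and 0 after rescaling), and 3 fell and 1 rose in F mice. On chow 16 were higher and 0 lower in M mice (7 and 5 after rescaling). The interaction was below 0 for 14 and above 0 for 0, where 6.92% and 1.46% of all genes were. After rescaling it was below 0 for 2 and above 0 for 0, where 2.1% and 2.13% of all genes were. Rack1 fell by 0.25 ± 0.034 in M mice (limma, adjusted p = 3.01e-10) and the elongation factor Eef1a1 fell by 0.26 ± 0.036 (adjusted p = 8.35e-10). The list also holds Fau and Rpl36al, which encode ribosomal proteins and whose symbols lie outside the rule; Rpl36al was higher in M mice on chow by 0.45 ± 0.042 (adjusted p = 2.39e-19).

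Of 25 ribosome biogenesis factors, against the same shares of all genes, 18 fell and 0 rose with diet in M mice (9 and 0 after rescaling), 6 fell and 1 rose in F mice, and 23 were higher and 0 lower in M than F mice on chow (19 and 1 after rescaling). Dkc1, the pseudouridine synthase of box H/ACA particles, fell by 0.33 ± 0.043 in M mice (limma, adjusted p = 1.13e-10). Nop56, a box C/D particle protein, was higher by 0.49 ± 0.053 in M mice on chow (adjusted p = 6.90e-16). Of 9 RNA polymerase I and rDNA transcription genes, 6 fell and 1 rose with diet in M mice (2 and 1 after rescaling), 2 fell and 0 rose in F mice, and 7 were higher and 0 lower in M mice on chow (3 and 1 after rescaling). Polr1b, the second largest subunit of that polymerase, fell by 0.30 ± 0.052 in M mice (adjusted p = 5.96e-07).

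With diet in M mice, 13 of 21 genes of the mTORC1 pathway and TOP regulators fell and 1 rose (8 and 2 after rescaling). Of all genes 39.8% fell and 11.4% rose (16.8% and 19.4% after rescaling). In F mice 10 fell and 2 rose, where 23.3% and 10% of all genes did. On chow 14 were higher and 3 lower in M mice (5 and 5 after rescaling). The shares of all genes were 44.1% and 19.1% (26.1% and 29.5% after rescaling). Larp1, which binds TOP messengers, fell by 0.29 ± 0.039 in M mice (limma, adjusted p = 3.79e-10). The S6 kinase gene Rps6kb1 fell by 0.27 ± 0.036 in M mice (adjusted p = 2.09e-10) and was higher in M mice on chow by 0.47 ± 0.036 (adjusted p = 4.07e-27). Of 7 genes of ribosome stress and p53, a list that includes Rps27l, 2 rose and 2 fell with diet in M mice. After rescaling 2 rose and 0 fell. In F mice 1 rose and 1 fell. On chow 4 were higher and 0 lower in M mice (3 and 1 after rescaling). The shares of all genes are those given above in this paragraph.

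Markers of liver cell types moved with the same groups, and their part in the results was not tested. Of 10 hepatocyte markers 7 fell and 0 rose with diet in M mice (5 and 0 after rescaling), and 5 fell and 0 rose in F mice (5 and 0), where 39.8% and 23.3% of all genes fell in M and F mice (16.8% and 14.7% after rescaling). Their summed signal was 17816 to 40232 in M mice on chow and 13228 to 45430 in M mice on high fat diet. All 10 Kupffer cell and macrophage markers were lower in M than F mice on chow, also after rescaling. Of all genes 19.1% were lower (29.5% after rescaling). The summed signal of these markers on chow was 56.2 to 368 in F and 32.7 to 133 in M mice. With diet in M mice 6 of them rose (7 after rescaling), where 11.4% of all genes rose (19.4% after rescaling). Of 13 lymphocyte markers 12 were lower and 1 higher in M mice on chow on both scalings, with sums of 3.45 to 15.6 in F and 2.07 to 6.54 in M mice. Of 8 sinusoidal endothelial markers 7 were lower and 0 higher in M mice on chow on both scalings. Of the tested members of the other lists, diet in M mice moved 4 erythroid markers up and 1 down of 6, 1 bile duct marker up and 1 down of 6, 1 pancreas acinar marker up and 1 down of 12, 0 of 4 skeletal muscle markers, and 11 cell cycle markers up and 0 down of 15. None of the 13 mitochondrially encoded messenger genes had a row, so the share of their RNA was not analysed here.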

How the data were processed

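Liver RNA of 192 mice was sequenced as 384 samples, 2 technical runs per mouse, with 100-base single-end Illumina reads from TruSeq mRNA libraries, per the labels' protocols. The authors deposited 1 table of upper-quartile normalized signal with 1 column per mouse. CASAVA 1.8.0 and the build GRCm38 (mm10) are named in the submitters' processing notes. The aligner, the counting of reads that match several genes, and the annotation are not given in the sources used here, so the values were treated as a normalized signal and not as counts. Steps between low values gave an estimated depth of 9.79 to 17.9 Mreads per mouse (median 14.2 Mreads, where Mreads is mega-reads). Whole reads could not be recovered (76.8% to 82.5% of values within 0.1 of a whole read), so no count test was run.

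Of 21454 rows, 21022 had a GENCODE M21 entry. Genes were kept where at least 46 mice were above 0 and the mean was at least the pseudocount of 0.0629, which is 1/100 of the median upper quartile of 6.29. Log2(signal + pseudocount) of 14602 genes was fitted with limma 3.58.1 (R 4.3.3, trend) on 4 group means and the generation label, and p-values were adjusted by Benjamini-Hochberg over all genes. Python 3.11.15, numpy 2.4.6, pandas 2.3.3 and matplotlib 3.10.9 did the rest. Median-of-ratios factors averaged 0.987, 0.955, 1.07 and 0.994 in F chow, F high fat, M chow and M high fat.

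Copies were found from shared 50-base words of GENCODE M21 transcripts. Sequences came from those transcripts and from RefSeq promoters of GRCm38.p6. Mice are separate animals. The labels' mouse numbers were checked for pairing and did not pair mice (closing section).

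Named genes were the 6 called genes with the largest change in each direction per comparison of 2 groups, the 4 with the smallest p for the interaction and the generation label, the 6 highest and lowest per kb, the 6 with the widest spread, paralogues, X-linked and stalk genes with Rpsa, genes failing the filter, up to 4 genes per further list by p, and the 6 most alike genes outside the set. Others named were chosen after their values were seen (Rps3, Rps19, Rpl11, Rpl12, Rpl13a and Rpl39-ps among them). A few genes that enter the counts are not reported here by name. Genes and lists were chosen with earlier results of these data known.

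Alternatives tried were the pseudocount, filter, scaling, array weights, robust moderation, covariates, a replicate block, each generation alone, and leaving out mice or genes.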

Additional observations from a re-analysis of the deposited data

Results flagged for a closer look

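The change with high fat diet differed between M and F mice by limma's interaction test (adjusted p under 0.05 over all 14602 genes) for 28 ribosomal protein genes, most of which are given here. Of all genes, 6.92% were below 0 and 1.46% above. Values are the log2 change in M mice minus that in F mice, on the deposited scaling. In the large subunit they were -0.15 for Rpl10, -0.21 for Rpl11, -0.18 for Rpl14, -0.24 for Rpl18, -0.19 for Rpl22, -0.23 for Rpl23, -0.18 for Rpl3, -0.17 for Rpl30, -0.18 for Rpl32, -0.22 for Rpl36a, -0.17 for Rpl6, -0.17 for Rpl8 and -0.18 for Rpl9. In the small subunit they were -0.21 for Rps14, -0.22 for Rps15, -0.16 for Rps15a, -0.26 for Rps19, -0.27 for Rps23, -0.20 for Rps24, -0.29 for Rps27a, -0.22 for Rps27l, -0.21 for Rps3, -0.23 for Rps3a1, and -0.17 for Rps4x. After median-of-ratios rescaling 6 of the 79 tested genes passed, where 2.1% of all genes were below 0 and 2.13% above.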

How the results depend on the processing

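Some directions turned. The median change with diet in F mice was -0.06 as deposited and 0.03 with quantile normalization, with 51 of 79 genes above 0. The median for M against F mice on high fat diet was 0.02 as deposited, -0.03 with either scaling, and -0.04 with copies and rescaling (8 higher and 12 lower). Share of summed signal was highest in F mice on high fat diet as deposited and in M mice on chow (1.07%) with quantile normalization. The ratio was higher on high fat diet in F mice as deposited (1.42 against 1.39) and lower without the genes that share words (1.56 against 1.59). With median-of-ratios rescaling, the genes that rose and fell with diet in F mice were 2 and 2 (0 and 7 as deposited), those higher in M mice on chow 28 (56), those higher and lower on high fat diet 7 and 5 (11 and 2), and interactions below 0 were 6 (28). Quantile normalization gave 3 and 0 for diet in F mice, 21 fallen in M mice (51), 24 higher and 1 lower in M mice on chow, 7 and 4 on high fat diet, and 5 interactions. Array weights gave 17 fallen in F mice. For array weights, fold limits, single generations, fits without some mice, the replicate block and copies with rescaling, the shares of all genes are not given. Counts under those settings are therefore not set against the whole table. G11L1 mice alone gave 0 fallen in F mice, 1 risen in M mice and 6 higher in M mice on high fat diet; G11L2 mice alone gave 15 fallen in F mice, 29 higher on chow, 7 higher and 0 lower on high fat diet, and 0 interactions, with fewer mice. A fold of at least 1.5 left 0 fallen in F mice, 0 fallen in M mice, 1 higher on chow, 0 higher and 0 lower on high fat diet, and 0 interactions. Of analyses chosen after seeing the data, adding copies gave 17 fallen in F mice and 48 interactions, and copies with rescaling gave 2 risen and 4 fallen in F mice, 12 lower on high fat diet, 11 interactions and 1 higher by generation; leaving out the F mouse lacking Xist changed no count by over 1.5 times. For these counts the cause was not tested, apart from scaling, fold or mouse number as named. The share of summed signal became 0.414, 0.428, 0.404 and 0.390% in F chow, F high fat, M chow and M high fat without the 45 genes sharing over 20% of their words, and 1.21, 1.25, 1.17 and 1.13% with copies. The large to small ratio became 1.59, 1.56, 1.60 and 1.62 without those genes, and with copies 1.52 in F chow, 1.53 in M chow and 1.55 in M high fat. Depth limits low genes: the pseudocount equals about 3.99 reads of the median mouse.

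With mouse number as a replicate block the within-number correlation was 0.020, and the counts were 7, 51, 56, 12 and 2, and 28, so that only the count higher in M mice on high fat diet moved, from 11 to 12. Residuals of the 92 F and M mice pairs sharing a number had a median correlation of 0.0031 (-0.18 to 0.32), with 9 above 0.1, so the numbers were not taken to pair mice.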
